A study of Mus musculus with 4 samples.

Results

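The genes described here are 24 named genes whose transcripts were all but missing from wild-type (WT) rib cartilage cells and present in both libraries from Trim28 knockout (Trim28 KO) embryos. They were chosen by their raw read counts in these 4 libraries, in a deposited table of 55228 genes. A gene had to have at most 3 reads in WT 1 and WT 2 together and at least 8 reads in each of Trim28 KO 1 and Trim28 KO 2. Predicted genes (Gm followed by digits, or a Rik ending), zinc finger and protocadherin genes named Zfp or Pcdh, and genes on the X or Y chromosome were left out, which left 23062 genes that the rule could take. The 24 genes are 0.104% of these. Since the contrast of Trim28 KO with WT chose them, their reads are given as a description with no test.

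The study sequenced total RNA of rib cartilage cells from E17.5 mouse embryos of the C57BL/6 strain, with 2 libraries of the Trim28 KO genotype and 2 of the WT genotype. How the knockout was made, and in which cells it acts, is not given in the labels. Nor do they say whether both libraries of a genotype were made from different embryos, and p-values here reflect the spread between libraries, which may be technical. TRIM28 is recruited to particular DNA sequences by KRAB zinc finger proteins, and in turn recruits the histone methyltransferase SETDB1 and heterochromatin protein HP1. The resulting heterochromatin is best known for silencing endogenous retroviruses and imprinted alleles, and in several cell types its loss lets nearby or normally tissue-restricted genes be transcribed. Rib cartilage is made of chondrocytes, which secrete a matrix of type II collagen and aggrecan. Neither a neuropeptide nor an epidermal keratin is among the usual products of this cell.

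Library totals, summed over all genes of the table, ran from 18616896 to 20082123 reads. A read here is a counted paired-end fragment. Trim28 had 992 and 1087 reads in Trim28 KO 1 and 2, against 4243 and 3675 reads in WT 1 and 2, so the genotype labels matched the targeted transcript. The cartilage label was met in both genotypes, with 12 chondrocyte markers summing to 98371 and 126067 CPM (reads scaled to a library size adjusted by TMM factors) in Trim28 KO, against 134684 and 101264 CPM in WT. By edgeR, 0 of the 12 were called at an adjusted p under 0.05, 1 was higher at an unadjusted p under 0.05, and DESeq2 called 1 higher. Xist, which is transcribed from the inactive X chromosome, had 19 reads in Trim28 KO 1, 7127 in Trim28 KO 2 and 16 in each WT library, while 4 Y-linked genes summed to 4044 reads in Trim28 KO 1, 22 in Trim28 KO 2, 3451 in WT 1 and 4209 in WT 2. Trim28 KO 2 was thus the only library with the pattern of a female embryo. In bulk RNA, fewer cells of a type and less RNA per cell cannot be told apart.

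The sequences upstream of 4 of the genes are shown because these are the members with the most Trim28 KO reads for which RefSeq, on GRCm38.p6, gave a start within 250 bases of the GENCODE start. Each run is the 250 bases before the annotated start, written 5′ to 3′ on the strand of the gene, and capitals mark CG dinucleotides, the sites at which mammalian DNA is methylated. The runs lie at chr10:115185023-115185272 (minus strand), chr17:93198767-93199016 (plus strand), chr1:72537160-72537409 (minus strand, listed by RefSeq as Marchf4) and chr7:64153585-64153834 (plus strand).
Tph2: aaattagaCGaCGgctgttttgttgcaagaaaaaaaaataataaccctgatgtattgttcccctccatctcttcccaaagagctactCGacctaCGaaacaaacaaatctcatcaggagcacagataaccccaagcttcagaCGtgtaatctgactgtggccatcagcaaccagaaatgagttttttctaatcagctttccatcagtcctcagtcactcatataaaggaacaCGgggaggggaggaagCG
Adcyap1: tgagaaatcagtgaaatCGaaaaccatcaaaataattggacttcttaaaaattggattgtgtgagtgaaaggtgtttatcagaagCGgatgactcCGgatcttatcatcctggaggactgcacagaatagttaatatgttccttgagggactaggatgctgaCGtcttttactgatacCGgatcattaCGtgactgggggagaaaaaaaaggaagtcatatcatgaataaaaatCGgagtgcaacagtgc
March4: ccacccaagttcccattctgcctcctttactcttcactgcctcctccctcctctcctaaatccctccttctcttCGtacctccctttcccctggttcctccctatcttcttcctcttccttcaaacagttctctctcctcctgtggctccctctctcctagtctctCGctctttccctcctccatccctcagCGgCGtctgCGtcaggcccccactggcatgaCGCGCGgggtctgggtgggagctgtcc
Trpm1: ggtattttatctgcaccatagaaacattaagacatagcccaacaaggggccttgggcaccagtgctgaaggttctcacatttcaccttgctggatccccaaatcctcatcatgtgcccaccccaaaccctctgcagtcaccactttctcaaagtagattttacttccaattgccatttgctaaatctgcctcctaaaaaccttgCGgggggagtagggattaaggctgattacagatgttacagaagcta
The Tph2, Adcyap1 and March4 runs held 7, 7 and 8 CG dinucleotides and the Trpm1 run held 1. Read on both strands, TATAAA began 30 bases before the start of Tph2 and was in none of the other 3 runs, and 12.2% of 20558 RefSeq promoters of the same length hold it. CCAAT was in the Adcyap1 and Trpm1 runs, against 35.1% of all promoters, and TGACGTCA, the cyclic AMP response element, was in none of the 4 runs, against 1.91%. None of the motifs contains another. TGCCGC, the core of the motif bound by the TRIM28 partner ZFP57, was in none of the 4 runs, against 9.48% of all promoters. Promoter entries were matched for 14 of the 24 genes (58.3%), so a comparison of base composition over the whole set is void and none is given. Calb1 had no entry.

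The 24 genes held 980 and 738 reads in Trim28 KO 1 and 2, against 15 and 14 reads in WT 1 and 2. A few genes carried most of these reads. Calb1, Tph2, Adcyap1 and Olfr1349 together held 1038 of the 1718 Trim28 KO reads (60.4%), and 18 of the 24 genes had under 50 reads in both Trim28 KO libraries together, with a median of 33.5. In WT, 8 genes had no read, 7 had 1 read, 5 had 2 reads and 4 had 3 reads. A count of 3 reads corresponds to 0.151 to 0.159 CPM in these libraries.

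**Figure D1:**
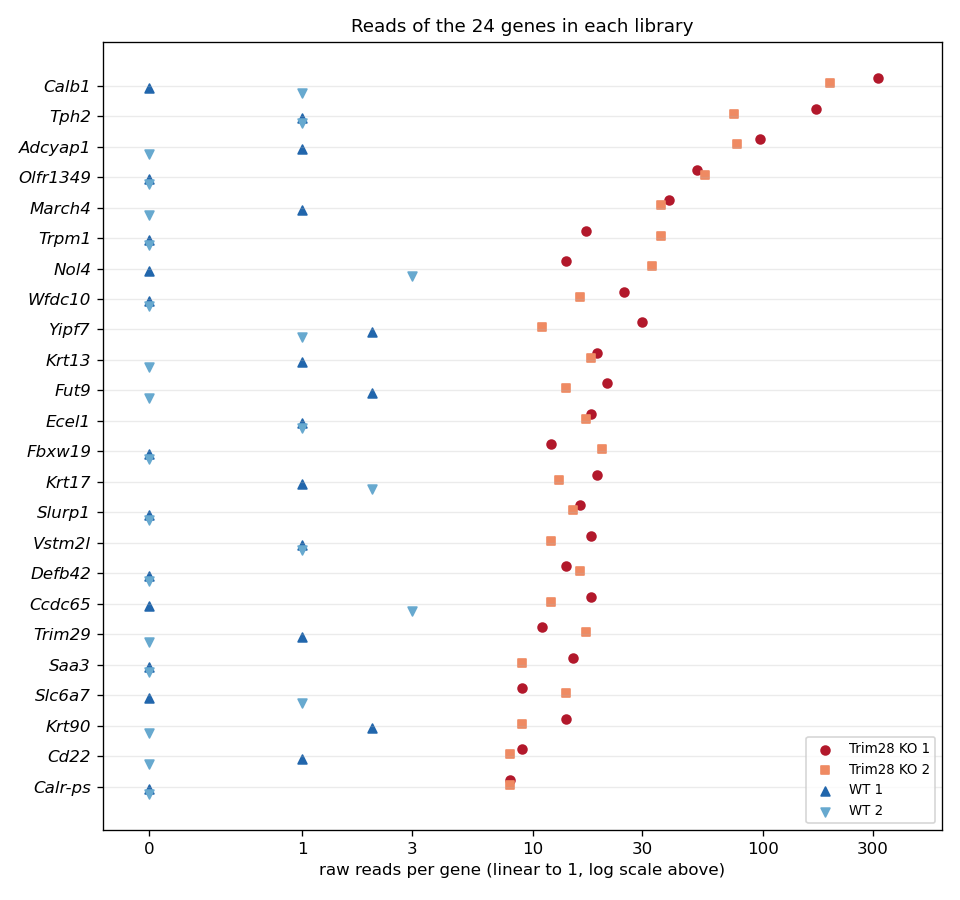
Raw reads of each of the 24 genes (rows) in Trim28 KO 1, Trim28 KO 2, WT 1 and WT 2, on an axis that is linear to 1 and logarithmic above. Calb1 had 315 and 196 reads in Trim28 KO and Calr-ps 8 and 8, while no gene had more than 3 reads in WT, a gap that the rule itself sets.

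The most reads, not corrected for gene length, were those of Calb1, Tph2 and Adcyap1. Calb1, which encodes the calcium buffer calbindin of neurons and kidney tubules, had 315 and 196 reads in Trim28 KO 1 and 2, against 0 and 1 reads in WT 1 and 2 (chromosome 4, 15881264 to 15908064, plus strand; all positions are on GRCm38, the assembly of mm10). Its level was 13.0 ± 4.51 CPM in Trim28 KO (SD, n = 2), and Trim28 KO 1 was 1.65 times as high as Trim28 KO 2. Tph2, the tryptophan hydroxylase that limits the rate of serotonin synthesis in neurons, had 170 and 75 reads in Trim28 KO and 1 and 1 reads in WT (chromosome 10, 115078641 to 115185022, minus strand). Trim28 KO 1 was 2.33 times as high as Trim28 KO 2 for this gene, and both were far above WT. Adcyap1, which encodes the neuropeptide PACAP, an activator of adenylyl cyclase, had 97 and 77 reads in Trim28 KO and 1 and 0 reads in WT (chromosome 17, 93199017 to 93206537, plus strand). Scaled for depth, the ratio of Trim28 KO to WT was 502 for Calb1 (95% exact interval 89.7 to 19857), 120 for Tph2 (32.9 to 999) and 171 for Adcyap1 (30.3 to 6787). These intervals cover counting error only and are wide because they rest on 1 or 2 WT reads.

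Genes that work beside Tph2 and Adcyap1 were listed after the values of the 24 were seen. Of 6 other genes of serotonin synthesis, transport and identity, 3 could be tested and 0 were called by edgeR's quasi-likelihood test or by DESeq2, with 1 lower at an unadjusted p under 0.05 and a median log2 fold change of -0.41. Ddc, the decarboxylase of the next step, had 92 and 74 reads in Trim28 KO, against 139 and 126 reads in WT (adjusted p = 0.0729). The 5-HT transporter gene Slc6a4 had 5 and 4 reads in Trim28 KO and 5 and 11 reads in WT, and Tph1, the other tryptophan hydroxylase, had 4 and 3 reads in Trim28 KO and none in WT. Of the 3 PACAP receptor genes, Vipr1 was higher (19 and 39 reads in Trim28 KO, 7 and 6 in WT, log2 fold change 2.10 ± 0.54, SE, adjusted p = 0.00809 by edgeR), Vipr2 was lower (512 and 598 reads in Trim28 KO, 899 and 1019 in WT, log2 fold change of -0.82 ± 0.19, adjusted p = 0.00303 by edgeR), and Adcyap1r1, the receptor most selective for PACAP, was not called (54 and 52 reads in Trim28 KO, 25 and 32 in WT, log2 fold change 0.87 ± 0.37). Over all 16639 tested genes, 8.64% were called higher and 8.77% lower, with a median log2 fold change of -0.02. Vipr1 was not called by DESeq2 (adjusted p = 0.0553) or without Trim28 KO 2 (adjusted p = 0.232), and Vipr2 was not called without Trim28 KO 1 (adjusted p = 0.0864).

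Several other members are known from the nervous system or the eye. Trpm1, a cation channel of retinal bipolar cells and melanocytes, had 17 and 36 reads in Trim28 KO and none in WT (chromosome 7, 64153835 to 64269775, plus strand). This is 17.3-fold over a floor of 3 reads in both WT libraries together. Fold values over this floor take the Trim28 KO reads as counted, without their counting error. Nol4, a nucleolar protein gene with high expression in brain, had 14 and 33 reads in Trim28 KO and 0 and 3 reads in WT (chromosome 18, 22693181 to 23041653, minus strand). Both genes were higher in Trim28 KO 2 than in Trim28 KO 1, by 2.06 and 2.30 times, the opposite of Calb1 and Tph2. Ecel1, a membrane metallopeptidase of motor neurons, had 18 and 17 reads in Trim28 KO and 1 and 1 reads in WT (chromosome 1, 87147655 to 87156521, minus strand). Slc6a7, the brain transporter of proline, had 9 and 14 reads in Trim28 KO and 0 and 1 reads in WT (chromosome 18, 60995380 to 61014222, minus strand). Fut9, the fucosyltransferase that makes the Lewis x epitope in brain, had 21 and 14 reads in Trim28 KO and 2 and 0 reads in WT (chromosome 4, 25609332 to 25800244, minus strand). Ecel1 was nearly equal in both Trim28 KO libraries, and Slc6a7 and Fut9 lay within the counting error of equal levels. Vstm2l, which encodes a secreted immunoglobulin-domain protein, had 18 and 12 reads in Trim28 KO and 1 and 1 reads in WT (chromosome 2, 157914653 to 157944719, plus strand).

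General markers of neurons moved in both directions. Calb1 is itself on the list of 26 neuron markers, and the other 25 summed to 35.3 and 34.3 CPM in Trim28 KO, against 44.3 and 43.2 CPM in WT. Single genes weighed heavily in these sums. Without Map2, a microtubule-associated protein gene, the other 24 summed to 27.4 and 25.6 CPM in Trim28 KO, against 25.8 and 21.4 CPM in WT, values that overlap. Of those sums, Uchl1 held 11.7 and 10.5 CPM in Trim28 KO, against 6.16 and 5.76 CPM in WT. Of the markers of synapses and transmitter types, Snap25, Slc17a6, Gad1 and Chat had no read in any library. Others had a few reads, such as Syt1 (6 and 9 in Trim28 KO, 1 and 4 in WT), Slc17a7 (7 and 9, against 4 and 4), Th (3 and 2, against 0 and 0) and Slc32a1 (1 and 1, against 6 and 2). Of the 9 that could be tested, 4 were higher and 2 lower by edgeR, with a median log2 fold change of -0.61. The higher ones were Prph (57 and 68 reads in Trim28 KO, 12 and 16 in WT), Rbfox3 (19 and 20, against 5 and 6), Pvalb (61 and 15, against 3 and 7) and Uchl1 (227 and 209, against 116 and 114), and the lower ones were Map2 (154 and 173, against 349 and 431) and Tubb3 (37 and 62, against 163 and 81). These were named after their values were seen. Skeletal muscle markers summed to 1531 and 612 CPM in Trim28 KO 1 and 2, and to 738 and 1012 CPM in WT 1 and 2. Like Pvalb, they were higher in Trim28 KO 1 than in Trim28 KO 2, and higher in WT 2 than in WT 1. The part of muscle in the Pvalb reads was not tested. Without Trim28 KO 1, 1 was higher and 1 lower, and without Trim28 KO 2 or without WT 1, 1 was lower. Rbfox3 was not called by DESeq2 (adjusted p = 0.186) or whenever 1 library was left out (0.110 to 0.194). The part of neuronal cells in the reads of the 24 genes was not tested.

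Keratin genes and other genes of stratified epithelium formed a second group. Of 55 keratin genes that the rule could take, 3 were members (5.45%, against 0.104% of all such genes), and no other name family that was counted had more than 1 member. Krt13, a type I keratin of the mouth and oesophagus, had 19 and 18 reads in Trim28 KO and 1 and 0 reads in WT (chromosome 11, 100117327 to 100121566, minus strand). Krt17, a type I keratin of hair follicles and injured epidermis, had 19 and 13 reads in Trim28 KO and 1 and 2 reads in WT (chromosome 11, 100256217 to 100261029, minus strand). The 2 genes lie 135 kb apart in the type I keratin cluster. Krt90 lies in the type II cluster (chromosome 15, 101552356 to 101562950, minus strand) and had 14 and 9 reads in Trim28 KO and 2 and 0 reads in WT. Krt16, between Krt13 and Krt17, was just outside the limits with 6 and 8 reads in Trim28 KO and none in WT. All of these keratins were low in Trim28 KO as well, at under 1 CPM in each library. The other 52 keratin genes did not rise as a set, with 19.7 and 18.8 CPM in Trim28 KO, against 21.1 and 16.0 CPM in WT. Of 7 that could be tested, 1 was higher (Krt75) and 1 lower by edgeR, with a median log2 fold change of -0.22. The lower one was Krt7 (11 and 21 reads in Trim28 KO, 47 and 36 in WT).

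Slurp1 and Trim29, outside the keratin family, are also known from epidermis and other stratified epithelia. Slurp1 encodes a secreted protein of the Ly6 family whose loss thickens the skin of palms and soles. It had 16 and 15 reads in Trim28 KO and none in WT (chromosome 15, 74724318 to 74728034, minus strand), at least 10.1-fold higher. Trim29, a TRIM family protein of basal epithelial cells that lacks a RING domain, had 11 and 17 reads in Trim28 KO and 1 and 0 reads in WT (chromosome 9, 43310848 to 43336115, plus strand). For both genes the Trim28 KO libraries lay within 2-fold of each other.

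The defining markers of epithelium were measured beside these genes. None of the 16 listed epithelial markers was among the 24, and they summed to 26.8 and 24.9 CPM in Trim28 KO, against 23.5 and 20.5 CPM in WT. Krt14, the basal epidermal keratin, had 1 and 1 reads in Trim28 KO and none in WT, and its partner Krt5 had 0 and 4 reads in Trim28 KO and 12 and 6 reads in WT. Epcam, an adhesion protein of simple epithelia, fell to 12 and 23 reads in Trim28 KO, against 69 and 88 reads in WT (log2 fold change of -2.18 ± 0.39, SE, edgeR adjusted p = 2.90e-04). Of the 7 markers that could be tested, Lypd3 was higher (244 and 178 reads in Trim28 KO, 3 and 3 in WT) and Epcam and Dsp were lower, with a median log2 fold change of -0.22. Dsp was not called by DESeq2 (adjusted p = 0.0589) or without Trim28 KO 1 (adjusted p = 0.295). Lypd3, a GPI-anchored surface protein of stratified epithelia, alone held 12.6 and 8.93 CPM of the summed level in Trim28 KO, against 0.159 and 0.152 CPM in WT. The part of epithelial cells in the reads of Krt13, Krt17, Krt90, Slurp1 and Trim29 was not tested.

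**Figure D2:**
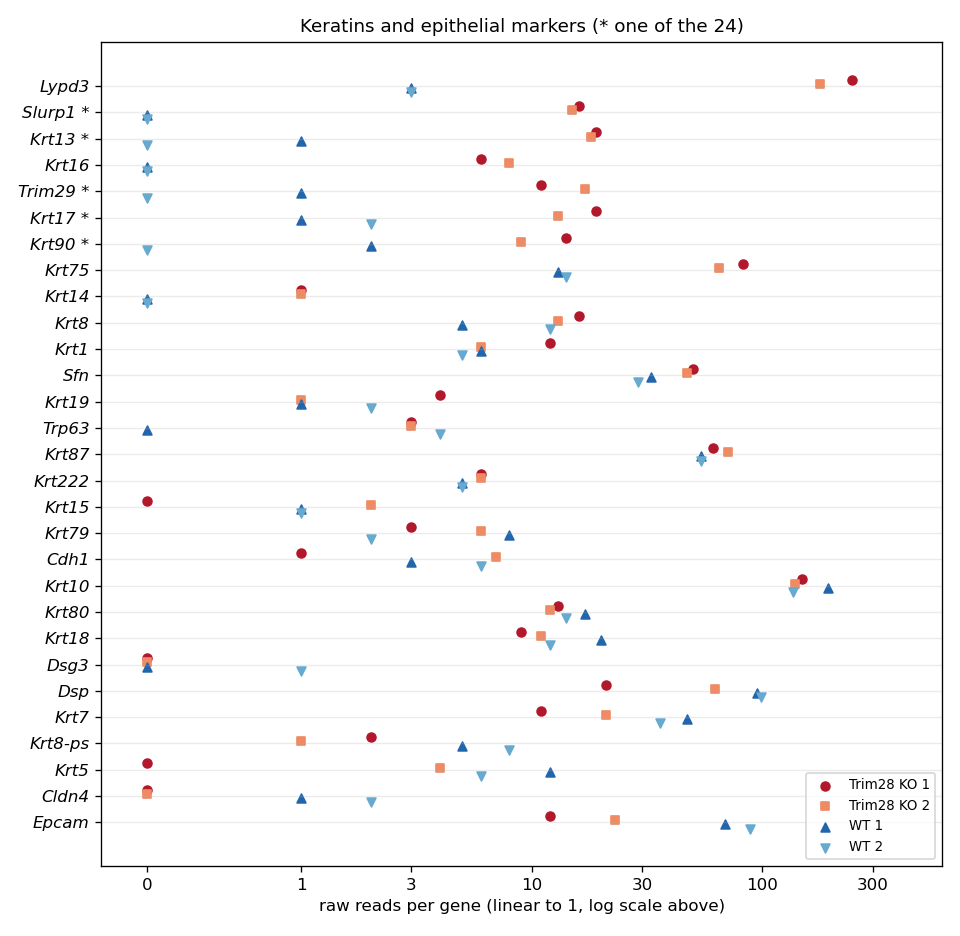
Raw reads in each library of 29 genes (rows, ordered by the ratio of Trim28 KO to WT reads), namely the 16 epithelial markers, the keratins with at least 10 reads in all 4 libraries together, and Slurp1 and Trim29. Stars mark members of the 24; Krt5 and Epcam lie near the bottom, with fewer reads in both Trim28 KO libraries than in either WT library.

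Wfdc10, Defb42 and Saa3 encode secreted proteins of separate families. Wfdc10, of the family of small protease inhibitors with a WAP domain, had 25 and 16 reads in Trim28 KO and none in WT (chromosome 2, 164656046 to 164657368, plus strand), at least 13.4-fold higher. Defb42, a beta-defensin, had 14 and 16 reads in Trim28 KO and none in WT (chromosome 14, 63046991 to 63058149, plus strand), 9.82-fold over the floor. The other 42 beta-defensin genes held 0.154 and 0.201 CPM in Trim28 KO, against 0.0531 and 0.0505 CPM in WT, so Defb42 alone of its family passed the limits. Saa3, an acute-phase protein made by macrophages and fat cells among others, had 15 and 9 reads in Trim28 KO and none in WT (chromosome 7, 46711998 to 46715700, minus strand), 7.86-fold over the floor. Its neighbours of the same family within 100 kb, among them Saa1 and Saa2, held 2 and 1 reads in Trim28 KO and 2 and 8 reads in WT.

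Cd22, an inhibitory receptor of B cells, had 9 and 8 reads in Trim28 KO and 1 and 0 reads in WT (chromosome 7, 30865402 to 30880342, minus strand). The B cell markers, listed after the values of the 24 were seen, were mostly near 0 in all libraries. Pax5, a transcription factor of the B cell lineage, had 0 and 0 reads in Trim28 KO and 0 and 5 reads in WT, and Ms4a1, which encodes the surface protein CD20, had 2 and 0 reads in Trim28 KO and 0 and 1 reads in WT. The 9 markers summed to 21.7 and 27.0 CPM in Trim28 KO, against 34.8 and 39.4 CPM in WT, but nearly all of this was Ebf1, a transcription factor that stromal cells also express. The 8 markers without Ebf1 summed to 1.596 and 0.803 CPM in Trim28 KO and 1.01 and 3.69 CPM in WT, values that overlap. Ebf1 was lower by edgeR (adjusted p = 0.0389), a call lost under DESeq2 (0.0748), with library sizes alone (0.0707) and whenever 1 library was left out (0.0505 to 0.370). Markers of several other cell types moved with genotype. Of 13 macrophage markers that could be tested, 9 were higher in Trim28 KO by edgeR (7 without Trim28 KO 1), with a median log2 fold change of 1.42, and the list of 14 summed to 468 and 282 CPM in Trim28 KO, against 141 and 146 CPM in WT. Of 7 tested erythroid markers, 6 were lower, and the list of 11 summed to 76.5 and 83.2 CPM in Trim28 KO, against 256 and 351 CPM in WT. Of 6 tested neutrophil markers, 3 were lower (0 without WT 2, 1 without either Trim28 KO library and 8 of 9 tested without WT 1), and of 12 Schwann cell markers 2 were higher and 4 lower (2 lower without Trim28 KO 1, Trim28 KO 2 or WT 2). The part of these cell types in the Saa3 and Cd22 reads was not tested.

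Olfr1349, an olfactory receptor gene on chromosome 7 (6513269 to 6522950, minus strand), had 52 and 56 reads in Trim28 KO and none in WT. It was 35.4-fold over the floor of 3 reads, and the Trim28 KO libraries were nearly equal. It was the only one of 1398 olfactory receptor genes that the rule could take within the limits (0.0715%). The 8 other olfactory receptor genes within 100 kb of it were too low to test. Together they held 12 and 10 reads in Trim28 KO and none in WT, which is 7.20-fold over the floor, and 6 of the 8 had a read in Trim28 KO. The nearest, Olfr1348, had 3 and 3 reads in Trim28 KO, and Olfr1347 had 4 and 1. The 1397 olfactory receptor genes elsewhere, taken on every chromosome, held 130 and 100 reads in Trim28 KO and 86 and 130 reads in WT, ranges that overlap. The reads of the neighbours were looked at after those of Olfr1349 were seen, and the counts of such close copies are uncertain.

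The remaining members act in ubiquitin transfer, membrane traffic and cilia, or are a pseudogene. March4, a membrane-bound ubiquitin ligase, had 39 and 36 reads in Trim28 KO and 1 and 0 reads in WT (chromosome 1, 72427112 to 72536930, minus strand). Fbxw19, an F-box protein gene in a tandem cluster, had 12 and 20 reads in Trim28 KO and none in WT (chromosome 9, 109476654 to 109495875, minus strand), 10.5-fold over the floor of 3 WT reads. Its 4 family members within 100 kb held 1 read in all, but they are close copies, and no option to count multi-mapping reads was set, so its value is uncertain. Yipf7, of a family of Golgi membrane proteins, had 30 and 11 reads in Trim28 KO and 2 and 1 reads in WT (chromosome 5, 69516671 to 69542648, minus strand). Scaled for depth, Trim28 KO 1 was 2.80 times as high as Trim28 KO 2, the widest ratio among the 24.

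Ccdc65, a subunit of the nexin-dynein regulatory complex of motile cilia, had 18 and 12 reads in Trim28 KO and 0 and 3 reads in WT (chromosome 15, 98708207 to 98723336, plus strand). Of 7 other genes of the complex, listed after the values were seen, 5 could be tested, with a median log2 fold change of 0.48. Drc1 was higher (20 and 20 reads in Trim28 KO, 6 and 3 in WT, log2 fold change 2.09 ± 0.59, adjusted p = 0.0155 by edgeR), a call lost under DESeq2 (adjusted p = 0.119) and without Trim28 KO 1 (0.151), Trim28 KO 2 (0.118) or WT 2 (0.149). Calr-ps is a processed pseudogene of the chaperone gene Calr within the span of Macrod2 (chromosome 2, 140955765 to 140956249, minus strand), and it had 8 and 8 reads in Trim28 KO and none in WT. Calr itself had 29142 and 29111 reads in Trim28 KO and 14180 and 18771 reads in WT, and whether the reads of Calr-ps came from Calr was not tested.

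Per length, the 24 genes lay below the median of the tested genes even in Trim28 KO. Calb1 stood at 2.69 CPM per kilobase of exon, Wfdc10 at 2.28, Tph2 at 2.17 and Adcyap1 at 1.17, and all others were under 1. The lowest level was that of Fut9, at 0.0645 CPM per kilobase, and the median of the 24 was 0.349. The median over all tested genes in Trim28 KO was 3.67 CPM per kilobase, and 0 of the 24 reached it. The highest members were not far below it, as 42.8%, 39.0% and 38.1% of tested genes lay below Calb1, Wfdc10 and Tph2. Of the 24, 19 passed the filter on low counts and 5 did not (Saa3, Slc6a7, Krt90, Cd22 and Calr-ps).

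The same limits were applied in the other direction, to genes with at most 3 reads in both Trim28 KO libraries together and at least 8 in each WT library. They took 23 genes (0.0997% of those the rule could take), against 24 in the direction described here (0.104%). Among genes with at most 3 reads in the silent genotype, the shares were 0.291% of 8238 genes silent in WT and 0.273% of 8430 genes silent in Trim28 KO. The sets differed in their upper end. Of the genes silent in WT, 4 had over 100 reads in Trim28 KO, with a maximum of 511 and a median of 33.5, whereas 0 of the genes silent in Trim28 KO had over 100 reads in WT, with a maximum of 67 and a median of 29. Among genes of any name and chromosome, 33 met the limits of the rule, and the 9 left out all carried Gm or Rik names of predicted genes. No gene named Zfp or Pcdh met them, and no gene on the X or Y chromosome with a name that the rule allowed.

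**Figure D3:**
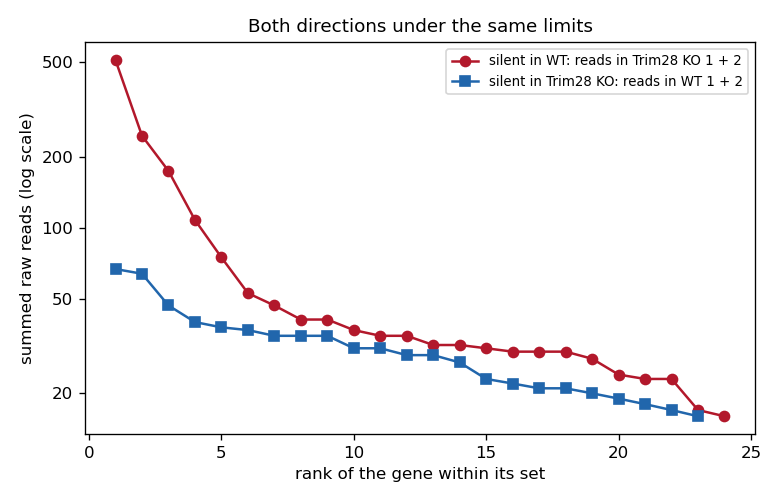
Summed raw reads in the expressing genotype (log scale) against rank, for the 24 genes silent in WT (reads in Trim28 KO 1 and 2) and the 23 genes silent in Trim28 KO (reads in WT 1 and 2). The first set reaches 511 reads and the second 67, and both end at 16.

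Genes at the edge of the limits show how finely these divide a continuous range. Just inside, 5 members had 8 or 9 reads in the lower Trim28 KO library, among them Cd22 and Calr-ps, and 4 members (Nol4, Yipf7, Krt17 and Ccdc65) had exactly 3 WT reads. Just outside, 10 genes had 6 or 7 reads in the lower Trim28 KO library, for example Krt16 and Gabrb2 (7 and 6 reads in Trim28 KO, 0 and 1 in WT). A further 12 genes had 4 or 5 WT reads, for example Mmp3 (45 and 65 reads in Trim28 KO, 0 and 4 in WT) and Btc (26 and 43, against 3 and 2).

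The libraries of Trim28 KO 1 and Trim28 KO 2 could be compared with each other for each gene, since the rule set only a minimum in both. Of the 24 genes, 17 were higher in Trim28 KO 1 and 7 in Trim28 KO 2 (70.8% in Trim28 KO 1, against 50.5% of 4727 other genes in the same range of reads). For 20 of the 24 the libraries lay within 2-fold of each other, which the minimum of 8 reads in each library partly fixes for the genes with few reads. The exact 95% interval of the share of reads in Trim28 KO 1 left out the 49.4% set by depth for 5 genes (20.8%), against 25.7% of the other genes. These were Calb1 (61.6%, interval 57.3 to 65.9), Tph2 (69.4%, 63.2 to 75.1) and Yipf7 (73.2%, 57.1 to 85.8) on the side of Trim28 KO 1, and Trpm1 (32.1%, 19.9 to 46.3) and Nol4 (29.8%, 17.3 to 44.9) on the side of Trim28 KO 2. The median size of the log2 ratio between the libraries was 0.61 for the 24 genes and 0.29 for the other genes in that range. These other genes shared only the range of reads with the 24 and were not matched to them by count. Of the 24, 18 had under 50 reads in both Trim28 KO libraries together. Counting error widens ratios and intervals at low counts. Neither the ratio nor the interval comparison can thus set the 24 apart from genes of equal count. With 1 library each, a difference between them has no replicate check. Sex, the macrophage markers given above and the skeletal muscle markers, which summed to 1531 and 612 CPM in Trim28 KO and 738 and 1012 CPM in WT, also differed between these libraries, and their part was not tested.

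**Figure D4:**
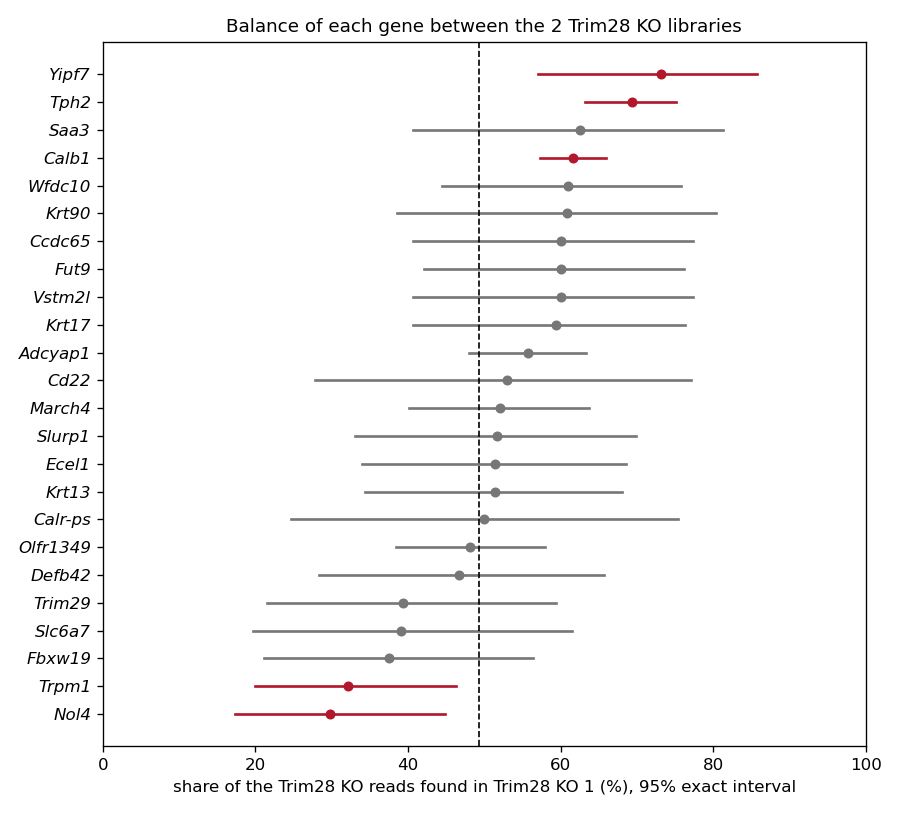
Share of each gene's Trim28 KO reads that came from Trim28 KO 1, with its exact 95% binomial interval (counting error only); the dashed line is the 49.4% set by depth. The 5 genes in red, Yipf7, Tph2, Calb1, Trpm1 and Nol4, have intervals that leave out the line.

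Whether genes close to the 24 also differed was tested, because the rule used none of their reads. The 24 genes lie on 12 chromosomes, with 4 on chromosome 7 and 3 each on chromosomes 2 and 15. Within 100 kb of them, 62 genes that are not members could be tested, beside 18 of the 24. By edgeR's quasi-likelihood test with adjustment over all 16639 genes, 5 of the 62 were higher in Trim28 KO (8.06%, against 8.64% of all genes tested) and 5 were lower (8.06%, against 8.77%). Their median log2 fold change was 0.08, against -0.02 over all genes. The shares among the tested neighbours were thus close to those of the whole table. The table held 217 genes that are not members within 100 kb, so most neighbours were too low to test and are not covered by these shares.

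The higher neighbours included 3 that share a gene family with the member beside them. Wfdc3, 73.8 kb from Wfdc10, had 125 and 88 reads in Trim28 KO and 12 and 2 reads in WT (log2 fold change 3.87 ± 0.51, SE, adjusted p = 4.81e-05 by edgeR), and Wfdc13, 27.7 kb away, had 19 and 14 reads in Trim28 KO and 4 and 2 reads in WT (2.38 ± 0.66, adjusted p = 0.0135). Wfdc2, at 87.5 kb on the other side, had 48 and 36 reads in Trim28 KO and 48 and 57 reads in WT and was not called. Krt75, a hair follicle keratin whose span ends 0.395 kb from that of Krt90 on the same strand, had 82 and 65 reads in Trim28 KO and 13 and 14 reads in WT (2.41 ± 0.40, adjusted p = 1.25e-04). Fdft1, the squalene synthase of cholesterol synthesis, lay 87.0 kb from Defb42 (1.04 ± 0.20, adjusted p = 5.02e-04) and Xrcc5, the Ku80 subunit of DNA end joining, 32.2 kb from March4 (0.62 ± 0.19, adjusted p = 0.0258). The lower ones were Arsi near Slc6a7 (-1.47 ± 0.21), Lsr near Cd22 (-2.24 ± 0.52), Cacnb3 (-0.88 ± 0.21) and Wnt10b (-1.13 ± 0.29) near Ccdc65, and Arc near Slurp1 (-1.35 ± 0.43), with edgeR adjusted p between 2.44e-05 and 0.0294. The calls of Wfdc3, Krt75, Fdft1 and Arsi held in all 9 alternative fits. Under DESeq2 the calls of Wfdc13 (adjusted p = 0.119) and Arc (0.131) were lost. Without Trim28 KO 1 those of Wfdc13, Xrcc5, Lsr, Cacnb3, Wnt10b and Arc were lost (adjusted p from 0.0586 to 0.303), which left 3 higher and 1 lower. Without Trim28 KO 2, or without 1 of the WT libraries, 4 to 7 neighbours were higher and 1 to 6 lower.

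**Figure D5:**
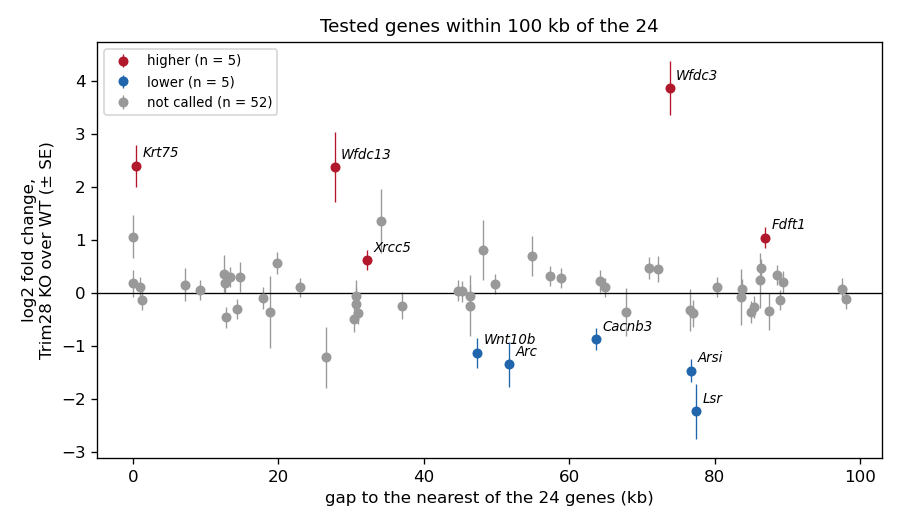
Log2 fold change of Trim28 KO over WT with its standard error for the 62 tested genes within 100 kb of the 24, against the gap to the nearest of these. Red and blue points were called higher (5) and lower (5) by edgeR, and the largest rise is that of Wfdc3 at 3.87.

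The exons of 20 of the 24 genes overlap no exon of another gene in GENCODE M21. The exceptions are Trpm1, Slurp1, Krt90 and Cd22, each with an overlap on the opposite strand (Gm44722, Them6, Gm44393 and Gm29439). Strand was not used in counting, so reads of a gene and of such a partner cannot be told apart where reads fall in exons of 1 of them. Them6 had 78 and 42 reads in Trim28 KO and 36 and 20 reads in WT and was not called.

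Genes that act with TRIM28 in heterochromatin formation were tested beside the 24. Of 24 such genes that could be tested, with a median log2 fold change of -0.05, Trim28 itself (log2 fold change of -1.96 ± 0.20) and Tasor, a subunit of the HUSH silencing complex (-0.62 ± 0.19, adjusted p = 0.0257 by edgeR), were called and both were lower. Setdb1 (-0.09 ± 0.19), Dnmt1 (0.11 ± 0.19) and Cbx5, which encodes heterochromatin protein 1 alpha (-0.23 ± 0.20), were not called. Tasor was not called with library sizes alone (adjusted p = 0.0568) and lost its call whenever 1 library was left out (adjusted p 0.0551 to 0.186). Of 39 listed germline genes, a class that DNA methylation keeps silent in somatic cells, 9 could be tested. Their median log2 fold change was -0.75, and Dmc1, Hormad2, Meioc and Zcwpw1 were lower by edgeR. These were not silent in WT, where Dmc1 had 60 and 72 reads, Hormad2 16 and 32, Meioc 13 and 13, and Zcwpw1 191 and 243. The 19 listed genes with at most 3 reads in both WT libraries together were not tested, so the median does not cover them. DESeq2 called 2 of the list lower, and 0 to 3 were lower when 1 library was left out, with 0 without Trim28 KO 1.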

How the data were processed

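Total RNA of 4 libraries, 2 Trim28 KO and 2 WT, was extracted with Trizol, per the labels. The authors deposited raw counts of fragments per gene name. Per the file headers these were made with featureCounts 1.6.4 over exons of GENCODE release M23 on mm10 with paired-end fragments, and no setting for strandedness, for multi-mapping reads or for reads shared by genes is recorded there. The exon length column (bases per gene) was deposited by the authors in the same table. The aligner is not given in the sources used here.

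The members and the gene lists were chosen with earlier results of these data known. Positions and X or Y linkage came from GENCODE M21 on GRCm38, the assembly of mm10, and the exon lengths of all 24 genes equalled the deposited ones. Promoters came from RefSeq (GRCm38.p6).

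Genes were kept by filterByExpr (16639 of 55228), scaled with TMM factors and tested with edgeR 4.0.16 (limma 3.58.1, R 4.3.3) by the robust quasi-likelihood test, with Benjamini-Hochberg adjustment over all tested genes and a call at an adjusted p under 0.05. A standard error is the log2 fold change divided by the square root of F. Ratios and shares have exact (Clopper-Pearson) 95% intervals, and ratios against 0 reads use a floor of 3 reads over both WT libraries. Intervals cover counting error only. A fold value over the floor takes the Trim28 KO reads as counted, without their counting error. The step was tested on simulated data for Trim28 KO against WT. Of simulated 2-fold and 4-fold changes among 16296 genes, 61.4% and 91.6% were called, and 14 of 166 calls were false. That false share is above the 0.05 at which calls were made. The simulation changed far fewer genes than were called in the data, so the false share there may differ. Named were all members, the 10 called neighbours with the smallest p-values, and up to 4 genes per list, with others chosen after values were seen where stated. Libraries of 1 genotype were not copies of each other (chi-square per degree of freedom of 24.6 in Trim28 KO and 30.6 in WT).

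Alternatives were other limits of the rule, limits on scaled counts, relative log expression (RLE) factors, unscaled library sizes, testing every gene with a count, DESeq2 1.42.0, a replicate block, leaving out each library, neighbour distances of 50 kb and 250 kb, and leaving out neighbours that overlap a member. Counts of called list genes under each fit, and sums without Map2 or Ebf1, were added after the data were seen. 1 B cell marker is not reported here and was left out of its list.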

Additional observations from a re-analysis of the deposited data

How the results depend on the processing

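The number of genes silent in WT and on in Trim28 KO follows the limits. In place of 24, it was 8, 15 and 105 with at most 0, 1 and 10 WT reads, and 46, 10 and 5 with at least 5, 15 and 30 reads in each Trim28 KO library. Leaving out a library loosens the limits, and gave 37 to 79 genes in this direction and 44 to 101 in the other. All genes called numbered 702 to 1442 higher and 572 to 1406 lower without 1 library, with the lowest counts without Trim28 KO 1 (702 and 572) and 906 and 807 without Trim28 KO 2. Neighbours called were 3 to 7 higher and 1 to 6 lower without 1 library, 3 higher and 1 lower of 33 within 50 kb, and 17 higher and 16 lower of 164 within 250 kb.

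No fit reversed the 10 named neighbours or Trim28, and 18 of 99 single-gene values lost their call. Of 342 counts of called list genes under other fits, 56 moved by more than 1.5 times. Same-numbered libraries did not deviate together (correlation of -0.08), and with the replicate block 1477 genes and 5 neighbours were higher and 1444 genes and 5 neighbours lower, against 1438 and 1460 genes without it. With the block, the neuron marker Tubb3 was not called (adjusted p = 0.0519), which left 1 lower in place of 2. Low read counts kept 5 of the 24 genes from being tested.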
